A study of Mus musculus with 4 samples.

Results

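The antigen receptor loci other than the heavy chain locus are the stretches of the mouse genome from which B cells assemble their light chains, Igk and Igl, and from which T cells assemble their receptor chains, Tra, Trd, Trb and Trg. Members were chosen with earlier results of these data known. All array probes inside 5 fixed windows of the mm9 build were taken, whatever their values. This gave 440 of the 159076 autosomal probe positions. Igk (chr6:67444297-70710392) held 179 of them, Tra together with Trd (chr14:53011095-54849589) 129, Trb (chr6:40566896-41554251) 97, Trg (chr13:19247084-19449563) 18 and Igl (chr16:18590951-19283060) 17. Delta chain segments lie inside the alpha chain locus, so Tra and Trd share a window. Probes stood a median of 14051 bp apart in Igk, 12361 bp in Igl, 10954 bp in Trg, 7414 bp in Tra and Trd and 7260 bp in Trb. In Igl the largest gap between neighbouring probes was 449969 bp, so a long stretch of that window was not sampled.

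The study compared DNA of liver tumours from 4 mice (tumours 1 to 4) with spleen DNA pooled from 3 littermates, which the series design describes as matched for sex, by array comparative genomic hybridization. Tumour DNA labelled with Cy5 and spleen DNA labelled with Cy3 compete for the same probes, and the log2 ratio of tumour over reference gives relative copy number. The series title describes C57BL/6J mice with Trp53 lost in the liver, tumour and spleen alike are labelled Trp53-/- and male, and no age, promoter or Cre line is given in the sources used here. The labelling protocol calls the reference liver, whereas the source name and the series design call it spleen. Arrays 1 and 2 shared a slide, as did arrays 3 and 4. There was no other group, so the question here is whether a receptor locus had another ratio than the rest of its chromosome. The levels of X and Y probes went against these labels in 2 of the 8 channels. The tumour channel of array 4 had an X level of -0.079 and a Y level of -3.11 against the autosomes of the channel (log2), and the reference channel of array 1 had -0.072 and -3.38. The other 6 channels had X levels of -0.99 to -0.89 and Y levels of -1.16 to -0.75. On arrays 1 and 4 the tumour and the pool therefore differed in these levels, against the male label of the library labelled tumour 4 and of the pool of array 1. The array of tumour 2 was the noisiest, with a spread between neighbouring probes (derivative log ratio spread in the file header) of 0.358, against 0.122, 0.144 and 0.155 for tumours 1, 3 and 4. Of the members, 438 were well above background in both channels on all 4 arrays.

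Developing B and T cells cut these loci with the RAG1 and RAG2 recombinase and join a V segment, in some loci a D segment, and a J segment into 1 exon. The DNA between joined segments is looped out and lost, or is turned around and kept when the segments face opposite ways, as many kappa V segments do. Liver cells keep the loci as inherited, whereas spleen is rich in B cells and also holds T cells. In the mouse the kappa light chain is used far more often than the lambda light chain. Most T cells in spleen carry alpha and beta chains, and few carry gamma and delta chains.

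RAG binds recombination signals, whose conserved heptamer is CACAGTG and whose nonamer is ACAAAAACC. These letters were searched on both strands in every probe, and the heptamer letters stood in 4 of the 440 probes, or 0.909%, and in 0.890% of all autosomal probes. The nonamer was in none of the 440 and in 0.114% of all probes. A match of letters describes a probe and is not a signal in use. The 4 heptamer probes are shown because they carry the letters that recombination acts on. They were picked by sequence, after values had been seen, and are printed as deposited, 5′ to 3′, with the heptamer or its reverse complement in capitals. Positions are on mm9, with no strand given in the files.
Trb probe at chr6:40870617-40870676: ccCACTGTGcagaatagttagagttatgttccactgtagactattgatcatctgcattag
Igk probe at chr6:69962827-69962886: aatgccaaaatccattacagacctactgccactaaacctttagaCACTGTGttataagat
Tra and Trd probe at chr14:53048990-53049049: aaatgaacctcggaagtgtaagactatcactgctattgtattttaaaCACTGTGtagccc
Tra and Trd probe at chr14:54157811-54157855: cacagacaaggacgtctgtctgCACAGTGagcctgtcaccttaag

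From the high-coordinate end of 3 windows, where J and C segments lie, the probe with the lowest mean is shown too. These probes were picked by their values and do not stand for their ends. No letters are in capitals, because neither motif occurs in them.
Trb end probe at chr6:41521435-41521494: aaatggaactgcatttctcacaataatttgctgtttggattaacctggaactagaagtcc
Igk end probe at chr6:70611358-70611417: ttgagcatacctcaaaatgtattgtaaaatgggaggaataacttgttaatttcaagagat
Tra and Trd end probe at chr14:54797444-54797503: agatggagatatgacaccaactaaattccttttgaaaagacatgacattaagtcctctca

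The test of a light chain or T cell receptor locus against its chromosome could not pass 0.05 with 4 tumours, and none did. Of the 5 loci only Igl had the same sign in all 4 tumours. Below, the excess is the mean log2 ratio of the probes of a locus minus the median of the other probes of its chromosome, so that 0 is the level of the chromosome. Igk had an excess of 0.13, -0.043, -0.0065 and 0.050 in tumours 1 to 4, a mean of 0.033 ± 0.076 (SD, n = 4). Tumour 1 was high, tumour 4 lay slightly above 0, and tumours 2 and 3 lay below it. Without tumour 1 the mean of Igk was 0.00010, and without tumour 4 it was 0.027. When the odd and the even probes were averaged apart, they gave 0.128 and 0.133 in tumour 1, -0.10 and 0.014 in tumour 2, -0.0071 and -0.0059 in tumour 3 and 0.043 and 0.058 in tumour 4. The probe sets thus differed in sign in tumour 2, the noisiest array.

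Igl, the lambda light chain locus, had an excess of -0.027, -0.00035, -0.053 and -0.070, averaging -0.038 ± 0.031 (SD, n = 4). All 4 tumours lay below 0. Its 17 probes left each of these values a standard error over probes of 0.037 to 0.10. None of the 4 values therefore stood more than 2 such errors from the chromosome. Of the 17 probes, the array gave a gene or transcript name to 14. The other 3 averaged 0.16, the opposite side of 0.

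Tra and Trd had an excess of 0.012, 0.037, -0.0020 and -0.029, with a mean of 0.0044 ± 0.028 (SD, n = 4). Trb had 0.011, -0.030, -0.013 and -0.024, with a mean of -0.014 ± 0.018 (SD, n = 4). Trg had -0.0040, -0.043, 0.047 and -0.0097, with a mean of -0.0024 ± 0.037 (SD, n = 4). The alpha, beta and gamma chain loci thus lay within 0.048 of their chromosomes in every tumour, on both sides of 0. Without tumour 2 the mean was -0.0065 for Tra and Trd and 0.011 for Trg, on the other side of 0. The exact two-sided sign-flip permutation test of each locus gave p = 0.13 for Igl, 0.25 for Trb, 0.5 for Igk, 0.75 for Tra and Trd and 0.875 for Trg (adjusted over the 5 loci, 0.625 to 0.875). With 4 tumours p cannot go below 0.13 (rounded), so none of these tests could pass 0.05. The test also leaves out the spread of the reference, and in bulk DNA the share of cells with a deletion and the length deleted per cell cannot be told apart. Averaged per slide, Igk had an excess of 0.043 on the slide of tumours 1 and 2 and 0.022 on the slide of tumours 3 and 4, and the other 4 loci lay between -0.062 and 0.024 on either slide.

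**Figure D1:**
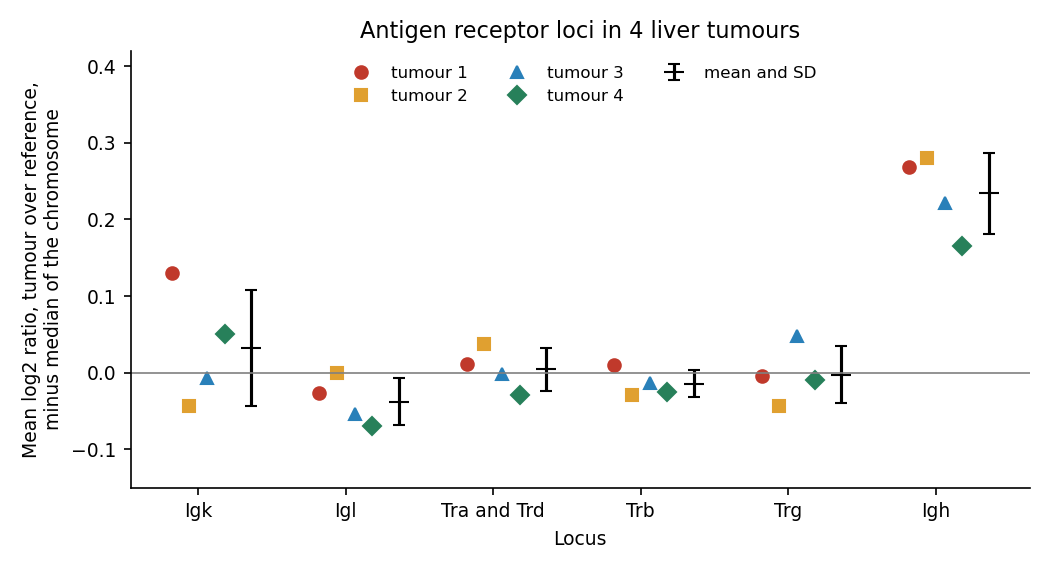
Excess of each antigen receptor locus over its chromosome (y axis, log2 ratio of tumour over reference) in tumours 1 to 4 (coloured symbols), with the mean and SD over the 4 tumours in black. The 5 light chain and T cell receptor loci lie around 0, apart from tumour 1 at Igk (0.13), and all 4 tumours at Igh lie between 0.17 and 0.28.

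The heavy chain locus Igh, measured the same way on chromosome 12, set the scale for these values. Its 205 probes had an excess of 0.27, 0.28, 0.22 and 0.17 in tumours 1 to 4. By this measure each of the 5 other loci lay below Igh in all 4 tumours. The median of chromosome 12 itself lay at -0.18, -0.030, -0.10 and -0.17 in tumours 1 to 4. Without the chromosome subtracted, Igh averaged 0.087, 0.25, 0.12 and -0.0089, and Igk 0.14, -0.062, 0.013 and 0.067. On that scale Igk lay above Igh in tumours 1 and 4, and Trb (-0.0074) and Trg (0.0035) lay above it in tumour 4. Taken as Igh minus locus, the mean difference was 0.20 ± 0.095 for Igk, 0.23 ± 0.027 for Tra and Trd, 0.24 ± 0.075 for Trg, 0.25 ± 0.050 for Trb and 0.27 ± 0.026 for Igl (SD, n = 4 tumours each). Every one of these 5 exact sign-flip tests gave p = 0.13 (also 0.13 after adjustment), the lower limit of the test. The difference at Igk was narrowest in tumours 4 and 1, at 0.12 and 0.14, and widest in tumour 2, at 0.32. The 5 differences share the Igh values and are not independent of each other.

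Along the loci, consecutive probes were averaged in bins of 10 and each of the 15911 autosomal bins was tested against its chromosome with limma. Of the 45 bins in the 5 windows, 0 passed an adjusted p of 0.05 as higher, against 0.044% of all bins, and 0 as lower, against 0% of all bins. The lowest adjusted p among the 45 was 0.370. By an unadjusted limma p under 0.05, 10 of the 45 passed, 6 of them higher, against 13.1% of all bins. The 7 autosomal bins that passed adjustment all lay in Igh, which has 21 bins.

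Bins were also described by direction alone. A bin above 0 in 4 of 4 tumours with a mean of at least 0.1 was counted as higher in all tumours. There were 2 such bins among the 45, both in Igk, where 1.75% of all autosomal bins met this rule. There was 1 bin below 0 in 4 of 4 tumours with a mean of -0.1 or less, at the end of Trb, where 3.77% of all bins met that rule. No bin of the 5 windows had 1 tumour at 0.2 or above and another at -0.2 or below, which 0.283% of all bins had. In Igh, 17 of 21 bins were higher in all tumours.

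Igk, the kappa locus, has 162 V, 5 J and 1 C entries in the RefSeq table (functional genes and pseudogenes together), with V segments on both strands. The J segments and the constant gene Igkc lie at its high-coordinate end, beside Rpia. The highest bin of Igk was the tenth of 18 (69224290 to 69429442), with 0.19, 0.27, 0.13 and 0.12 in tumours 1 to 4. All 4 tumours were above 0.1 there, and the mean was 0.18 ± 0.069 (SD, n = 4; limma adjusted p = 0.370). The next bin (69447822 to 69601514) had 0.24, 0.039, 0.039 and 0.092, a mean of 0.10 ± 0.096. The first bin of the window (67444297 to 67648283) had 0.026, -0.15, -0.026 and 0.062, on both sides of 0.

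The lowest bin of Igk was the last (70611358 to 70710392, 9 probes), at the J and C end. Its values were -0.036, -0.19, -0.065 and -0.081 in tumours 1 to 4 (mean -0.094 ± 0.069, SD, n = 4; limma adjusted p = 0.370). All 4 tumours were below 0 there, tumour 1 included. The standard errors over probes were 0.050, 0.13, 0.036 and 0.052, and none of the 4 values stood 2 such errors from the chromosome. With normexp background correction of the mean signals in place of the processed signals, the tenth and the last bin both passed. Their means were 0.29 (limma adjusted p = 0.0174) and -0.20 (limma adjusted p = 0.0430). This setting also leaves out the dye normalization of the extraction software, so it changes more than the background. With the intensity trend removed the means were 0.11 for the tenth bin and -0.046 for the last, and without tumour 2 the mean of the last was -0.061. Under the other alternatives with the same bins, the limma adjusted p lay between 0.0986 and 0.590 for the tenth bin and between 0.131 and 0.590 for the last. Under that correction 184 of all 15911 bins passed, 11 of them in Igh.

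The high ratio of Igk in tumour 1 extended over most of the locus. In this tumour 14 of the 18 Igk bins were at 0.1 or above, where 2.07% of all its autosomal bins were. In tumours 2, 3 and 4 the count was 3, 1 and 3 bins, against 21%, 1.13% and 4.89% of all bins of the same tumour. The 14 bins of tumour 1 were consecutive, the fourth to the seventeenth (68045392 to 70592138), and spanned 2.55 Mb and 140 probes with values between 0.13 and 0.24. Over this stretch the probes averaged 0.17 in tumour 1, -0.0068 in tumour 2, 0.0014 in tumour 3 and 0.064 in tumour 4. These counts were chosen after the values of tumour 1 had been seen.

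The high stretch ended inside the window on both sides. The first 3 Igk bins of tumour 1 had 0.026, -0.047 and 0.043, and the last had -0.036. Of the probes of Igk, 85.5% were above the chromosome median in tumour 1, against 43.6%, 53.1% and 64.8% in tumours 2, 3 and 4. Beyond the window, the 5 bins below it (66869762 to 67438831) averaged -0.021 in tumour 1 and the 5 above it (70721965 to 71367604) averaged -0.0024. A run of 14 consecutive bins at this level was the longest on any autosome of tumour 1, and its second longest run, of 12 bins, lay in Igh. In tumours 2, 3 and 4 no more than 2 consecutive Igk bins reached 0.1.

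**Figure D2:**
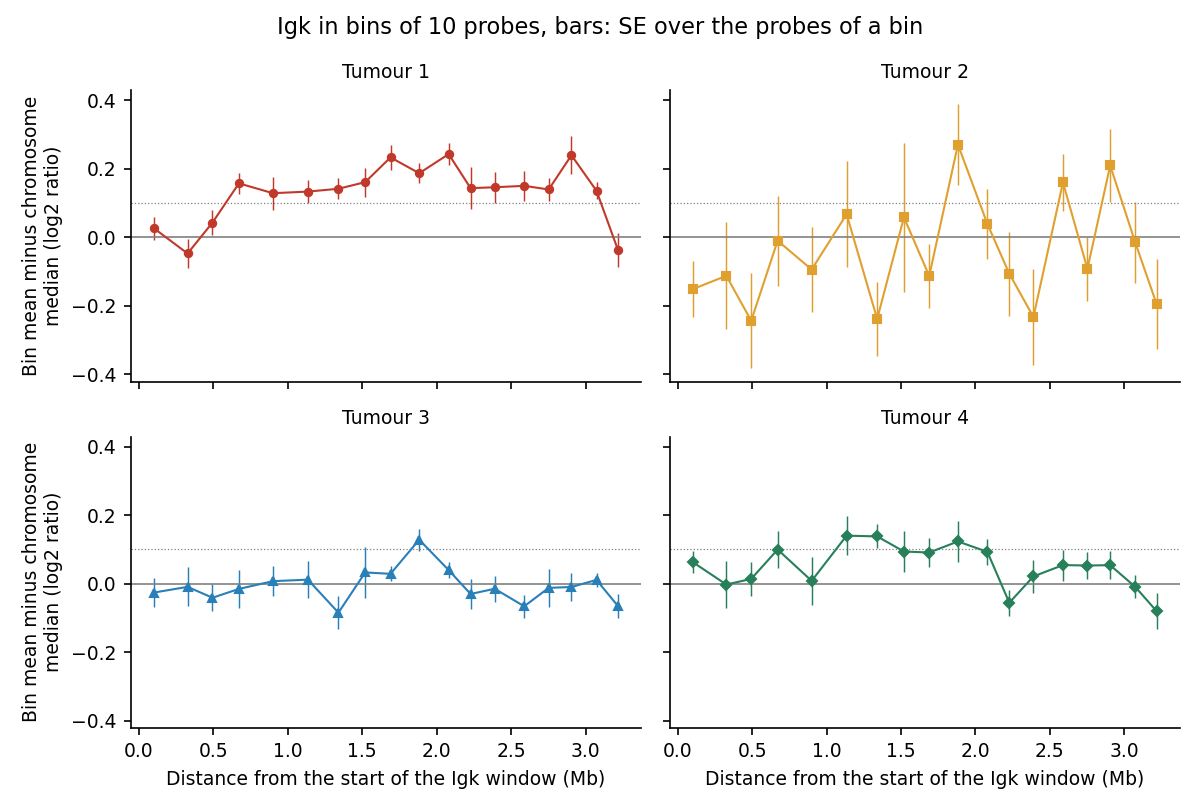
Igk in bins of 10 probes, a panel for each tumour, by distance from the window start (x axis, Mb), as the bin mean minus the chromosome median (y axis, log2 ratio), with the standard error over the probes of a bin and a dotted line at 0.1. In tumour 1 a run of 14 bins lies between 0.13 and 0.24 with values near 0 at both ends, whereas 1 to 3 bins reach 0.1 in each of the others.

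The channels of the 4 arrays were compared at the same probes, each against its own level on chromosome 6. At Igk the tumour channel of array 1 lay 0.0082 above the mean of the 4 arrays, and those of arrays 2, 3 and 4 lay at -0.054, 0.011 and 0.034. The reference channel lay at -0.087 on array 1, against 0.020, 0.044 and 0.023 on arrays 2, 3 and 4. Array 1 thus had the lowest reference channel and a tumour channel between those of the others. In 13 of the 14 bins of the high stretch the reference channel was lowest on array 1, and in 2 of the 14 the tumour channel was highest on it. This is the reference channel whose X and Y levels went against the male label. The part that the spleen pool of array 1 has in the ratio at Igk was not tested. Since the pool came from other mice than the tumour, what the tumour changed and what the mice differed in cannot be told apart.

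**Figure D3:**
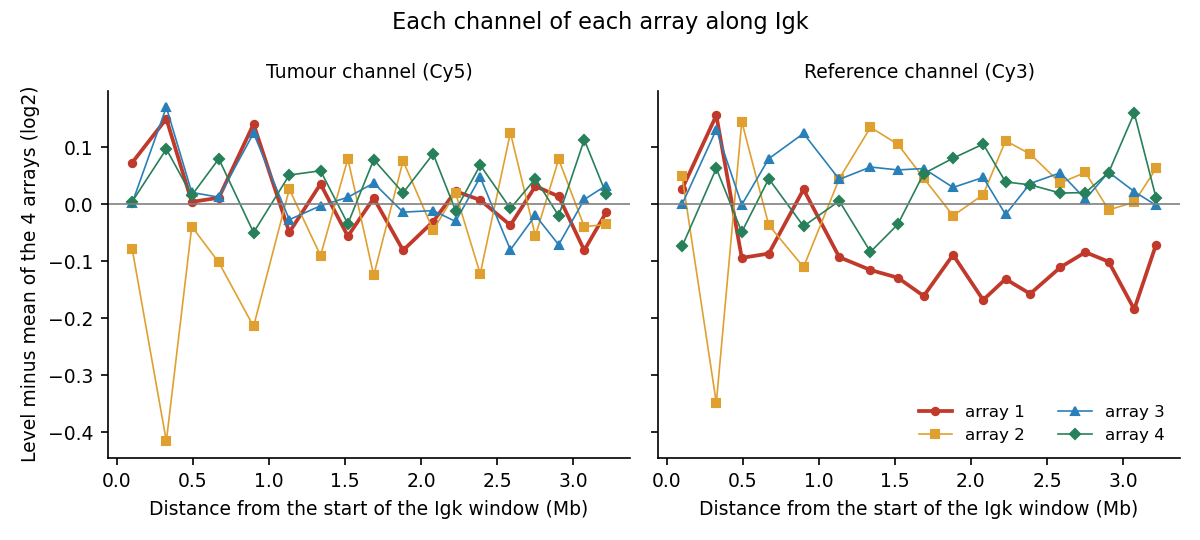
Tumour channel (left) and reference channel (right) along Igk, as the level of each bin minus the mean of the 4 arrays (y axis, log2, each channel against its own chromosome 6 median), by distance from the window start (x axis, Mb). The reference channel of array 1 (thick line) lies below those of the other arrays over most of the window (mean -0.087), and its tumour channel runs among the others.

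Trb, the beta chain locus, carries trypsinogen genes between its V segments, and its D, J and C segments lie near its high-coordinate end, followed by Trbv31, which faces the other way, and then by Ephb6 (RefSeq order). The last bin (41508136 to 41554251, 7 probes) was the lowest of all 45 bins. Its values were -0.076, -0.33, -0.12 and -0.10 in tumours 1 to 4 (mean -0.16 ± 0.12, SD, n = 4; limma adjusted p = 0.370). All 4 tumours were below 0, with tumour 2 the lowest, and without tumour 2 the mean was -0.099. The highest bin of Trb (41271302 to 41358664) had 0.042, 0.16, 0.067 and 0.033, a mean of 0.075 ± 0.057. It holds probes named for Try10 and Prss3, which encode trypsin-type proteases of the pancreas. The first bin (40566896 to 40724727) had 0.012, -0.10, 0.027 and -0.028.

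In Tra and Trd the lowest bin was the second of 13 (53066615 to 53108322), which holds a probe named for Olfr1509, an olfactory receptor gene next to the V segments. It had -0.088, -0.11, -0.067 and -0.11 in tumours 1 to 4, a mean of -0.094 ± 0.021 (SD, n = 4; limma adjusted p = 0.370). The 4 values were close together, with standard errors over probes of 0.024, 0.14, 0.034 and 0.035. That of tumour 2 exceeded its value. The first bin (53011095 to 53062417) had -0.032, -0.028, -0.067 and -0.054. The last bin (54757640 to 54849589), at the end where the constant gene Trac lies by RefSeq order, was the highest of the locus, with 0.058, 0.14, 0.060 and -0.011. Tumour 4 differed in sign from the other tumours in that bin.

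Igl and Trg had 2 bins each. The first bin of Igl (18590951 to 19125397) had -0.026, 0.038, -0.057 and -0.11, and the second (19139202 to 19283060) had -0.028, -0.054, -0.048 and -0.0071. Only the second was below 0 in 4 of 4 tumours, and its mean of -0.034 did not reach -0.1. The first bin of Trg (19247084 to 19373569) had 0.0013, -0.073, 0.082 and 0.028, and the second (19380287 to 19449563) had -0.011, -0.0058, 0.0038 and -0.057. Both Trg bins lay on both sides of 0.

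**Figure D4:**
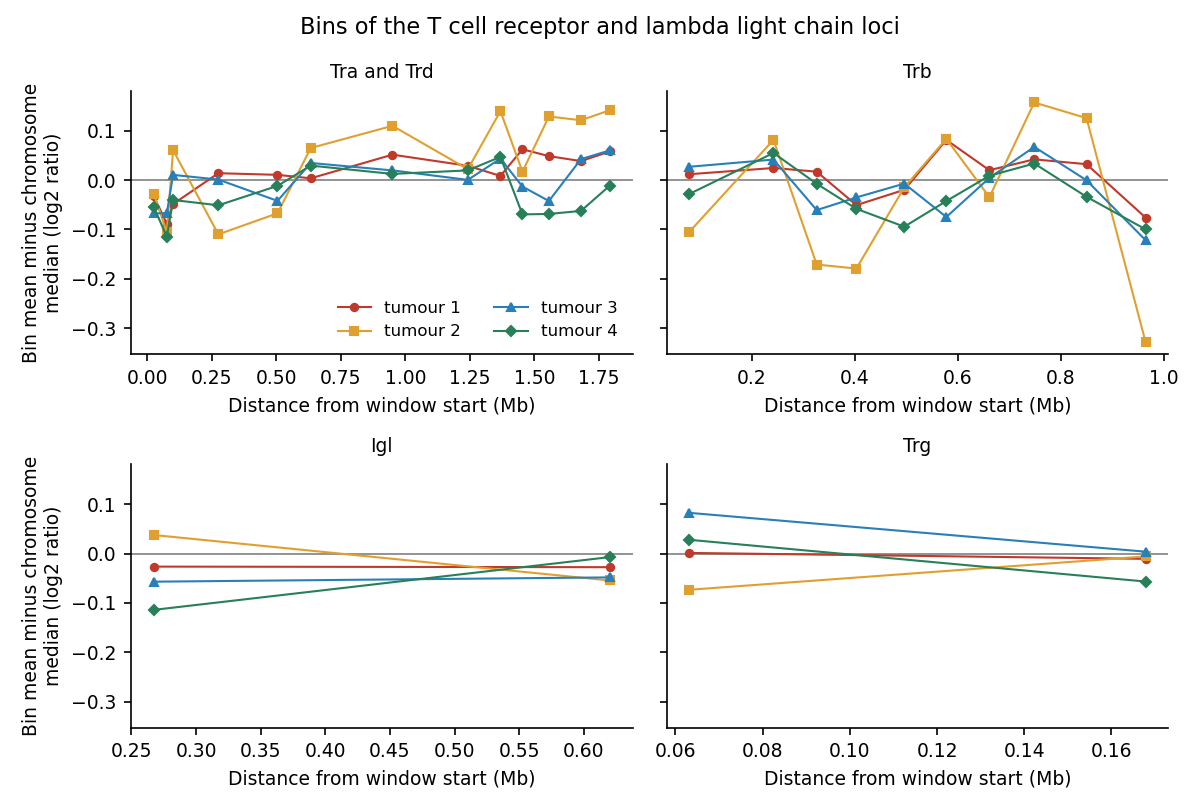
Bins of Tra and Trd, Trb, Igl and Trg by distance from the window start (x axis, Mb), as the bin mean minus the chromosome median (y axis, log2 ratio), 1 line for each tumour. The last bin of Trb lies below 0 in all 4 tumours (-0.076 to -0.33), the second bin of Tra and Trd lies at -0.067 to -0.11, and most of the remaining bins have tumours on both sides of 0.

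Recombination joins to J segments, so the J and C end of a locus was set against the remainder of its window. The end was the last 200 kb of Igk, Tra and Trd, and Trb, whose J and C segments lie there by RefSeq order. Igl and Trg were left out, since their C genes are spread through the window. In Igk the 15 end probes averaged 0.028, -0.12, -0.037 and -0.061 in tumours 1 to 4, and the other 164 averaged 0.14, -0.036, -0.0037 and 0.060. The end was below the remainder in 4 of 4 tumours. End minus remainder was -0.11, -0.083, -0.033 and -0.12, averaging -0.087 ± 0.040 (SD, n = 4). The exact sign-flip test gave p = 0.13, its lower limit (0.25 after adjustment over the 3 loci). Over the last 100 kb the difference was -0.13, and over the last 400 kb it was -0.029.

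In Tra and Trd the 17 end probes averaged 0.041, 0.12, 0.059 and -0.045, and the other 112 averaged 0.0071, 0.025, -0.011 and -0.027. The difference was 0.034, 0.092, 0.071 and -0.018, averaging 0.044 ± 0.048 (SD, n = 4; exact sign-flip p = 0.25, adjusted p = 0.25), and without tumour 2 it averaged 0.029. In Trb the 19 end probes averaged 0.0016, -0.023, -0.029 and -0.054, and the other 78 averaged 0.013, -0.031, -0.0088 and -0.017. The difference was -0.011, 0.0085, -0.020 and -0.036, averaging -0.015 ± 0.019 (SD, n = 4; exact sign-flip p = 0.25, adjusted p = 0.25), -0.0077 without tumour 4 and -0.023 without tumour 2. Over the last 100 kb of Trb it was -0.096 and over the last 400 kb it was 0.0053.

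The end probes printed above were the lowest of their windows' ends. The lowest probe of the Trb end, 32757 bp from the window end, had -0.16, -0.87, -0.46 and -0.42 in tumours 1 to 4, a mean of -0.48 ± 0.29 (SD, n = 4). The lowest of the Igk end, 98975 bp from the window end, had -0.070, -0.47, -0.17 and -0.15. The lowest of Tra and Trd, 52086 bp from the end, had -0.12, -0.54, -0.058 and -0.25. Not all probes of these ends followed them. The highest probe of each end was above 0 in 4 of 4 tumours, with means of 0.32 in Trb, 0.24 in Igk and 0.23 in Tra and Trd. In Trb 4 of the 19 end probes were below 0 in 4 of 4 tumours and 2 were above 0 in 4 of 4. The 4 below 0 lay between the lowest probe and the window end, where the probe means were -0.48, -0.32, -0.17, -0.22 and -0.056. In Igk the counts were 3 below and 1 above of 15, and in Tra and Trd 1 below and 4 above of 17. The 3 of Igk were neighbours, 98975, 82877 and 63262 bp from the window end. This grouping was described after the values had been seen and was not tested. Over the 51 end probes together, 8 were below 0 in 4 of 4, where 13% of all autosomal probes were, and 7 were above, against 13.7% of all. Both shares of the end probes were near those of all probes.

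**Figure D5:**
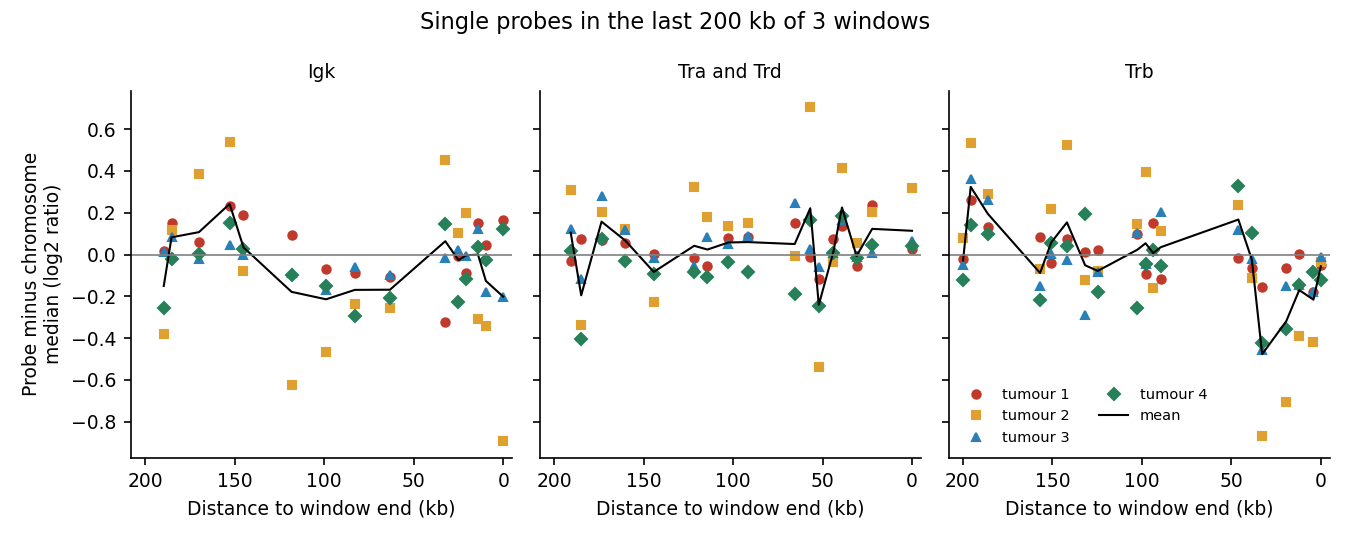
Single probes in the last 200 kb of Igk, Tra and Trd, and Trb, as the probe minus the chromosome median (y axis, log2 ratio), by distance to the window end (x axis, kb, the window end at the right), with a symbol for each tumour and the mean as a line. The probe 32757 bp from the end of Trb averages -0.48, and tumour 2 has the widest scatter in all 3 panels.

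A gradual change along each window was described by the least-squares slope from low to high coordinate. It was fitted over all probes of the window, the J and C end included. In Tra and Trd the slope was 0.057, 0.11, 0.035 and 0.022 log2 units per Mb in tumours 1 to 4, above 0 in 4 of 4. It averaged 0.055 ± 0.037 (SD, n = 4; exact sign-flip p = 0.13, its lower limit; 0.375 after adjustment) and 0.038 without tumour 2. In Igk it was 0.031, 0.044, -0.00021 and -0.019 (mean 0.014 ± 0.029, exact sign-flip p = 0.5; mean 0.0040 without tumour 2). In Trb it was -0.011, 0.061, -0.058 and -0.048 (mean -0.014 ± 0.054, exact sign-flip p = 0.75; mean 0.00093 without tumour 3). The slopes of Igk and Trb lay on both sides of 0.

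In tumour 1 the SD over probes was 0.146 in Igk against 0.127 in the rest of chromosome 6, and 0.186 in Igl against 0.124 in the rest of chromosome 16. In tumour 2 it was 0.411 in Igk against 0.384. In tumours 3 and 4 Igk had the smaller SD, 0.141 against 0.155 and 0.160 against 0.166. In Tra and Trd the SD was below that of the rest of chromosome 14 in 4 of 4 tumours. Igl, Trb and Trg were above their chromosomes in some tumours and below them in others. Counted by probe, 40 of the 440 were above 0 in 4 of 4 tumours with a mean of at least 0.2, where 5.27% of all autosomal probes met this rule, and 27 were below 0 in 4 of 4 with a mean of -0.2 or less, against 6.12% of all. Igk held 22 of the 40 higher probes and 4 of the 27 lower ones. Tra and Trd held 12 higher and 10 lower probes, Trb 5 and 8, Trg 1 and 2, and Igl 0 and 3. Probes of 1 locus share the ratio of their array and are not independent.

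Among the heptamer probes, that of Igk had 0.23, 0.37, 0.027 and 0.26 in tumours 1 to 4. The 2 of Tra and Trd had 0.15, 0.34, 0.090 and 0.23 for the first and 0.22, 0.53, 0.081 and 0.078 for the second. That of Trb, in a position named for 1700074P13Rik, had -0.026, -0.32, 0.019 and -0.12. Thus 3 of the 4 were above 0 in every tumour, where 15.3% of all 1415 autosomal probes with the heptamer letters were, and 1 was not. Nothing is read from a count of 4 probes that were picked after values had been seen. The ratio went with base composition. Over the 440 probes the correlation of the excess with the GC content of the probe was 0.12, 0.36, 0.062 and 0.13 in tumours 1 to 4, and over all autosomal probes it was 0.096, 0.28, 0.059 and 0.10 (Pearson's r across probes that share an array, as a description). The members had a mean GC content of 36.0%, against 36.5% over all autosomal probes. Of the 440 probes, 1 shared a stretch of 20 bases with another autosomal probe.

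The array gave 7 gene names within Trb and 2 within Tra and Trd, both olfactory receptors. Those named next outside the bins given above were picked after their values had been seen. Among the trypsinogen group of Trb, Prss1 had 0.076, 0.52, -0.028 and 0.043 over its 1 probe, Prss3 had -0.16, -0.11, -0.063 and 0.098, and Try10 had 0.13, 0.035, -0.22 and -0.070. None of these 3 kept its sign in all 4 tumours. The position 1810049H19Rik, which is Try5 in RefSeq, was above 0 in 4 of 4, with 0.0023, 0.16, 0.065 and 0.0069. The position 2210010C04Rik was below 0 in 4 of 4, with -0.12, -0.85, -0.17 and -0.033. Olfr1507 had -0.12, 0.44, 0.046 and 0.12 over 3 probes. Trypsinogen and olfactory receptor genes belong to families of similar members, so a single probe may read more than 1 of them.

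The genes that act on these loci were examined as 2 lists, with gene values as centred log2 ratios, not relative to the chromosome. Of the 12 genes of recombination and end joining, 11 were on the array and 9 had the 2 probes needed for the test. Of the 9 receptor partner chains, 5 were on the array and 3 were tested. In limma over 13389 genes, 0 of the 12 tested list genes passed as higher, against 0% of all genes, and 0 as lower, against 0% of all genes. By an unadjusted limma p under 0.05, 3 of the 12 passed, 2 of them higher, against 19.0% of all genes. Among the tested genes, the median of the gene means was 0.029 for recombination and end joining and -0.021 for the partner chains, against -0.0083 over all genes. The list genes with 1 probe were left out of these medians. Of them, Cd79a averaged 0.27 ± 0.32 and Cd79b 0.29 ± 0.35 among the partner chains (SD, n = 4). In the other list Hmgb1 averaged 0.27 ± 0.28 and Lig4 -0.22 ± 0.30. Each lay farthest from 0 in tumour 2, the noisiest array, at 0.72, 0.77, 0.68 and -0.66 in that order. Cd79b was below 0 in tumour 4.

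Rag1, 1 of the 2 recombinase genes, had 0.14, 0.23, -0.011 and 0.064 in tumours 1 to 4 (limma adjusted p = 0.305). Dclre1c, which encodes the hairpin-opening nuclease Artemis, had a mean of 0.12 ± 0.087 (SD, n = 4; limma adjusted p = 0.229). Atm, the kinase that responds to double-strand breaks, had -0.20, -0.19, -0.13 and -0.26 (limma adjusted p = 0.0797), on chromosome 9, whose median averaged -0.12. Xrcc6, which encodes Ku70, averaged 0.15 ± 0.12 on chromosome 15, whose median averaged 0.23. The means of Atm and Xrcc6 thus lay on the same side of 0 as the medians of their chromosomes, with Xrcc6 below its chromosome. Dntt, which adds bases at the joins, averaged 0.049 ± 0.088. Prkdc, the DNA-dependent protein kinase, averaged -0.082 ± 0.089 on chromosome 16, whose median averaged 0.0023, on the other side of 0. Cd3e, a chain of the T cell receptor complex, had -0.18, 0.79, -0.042 and 0.033 over 3 probes, with tumour 2 far above the others. Its mean of 0.15 lay on the other side of 0 from the median of chromosome 9.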

How the data were processed

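Each array held 174317 non-control spots. Per the file headers, the deposited intensities are output of Agilent Feature Extraction 12.0.1.1 with positions on mm9 (12.0.0 per the submitters' processing notes), and the processed intensities had been background-subtracted and dye-normalized by the extraction software. The deposited log10 ratio was used only to check direction and matched that of the processed signals within 0.001 at no fewer than 99.7% of spots. From these, log2 of tumour over reference was computed. Flagged spots were left out, replicate spots averaged, and each array centred on its autosomal median. The baseline of a locus was the median of the probes of its chromosome outside the windows and Igh. Bins held 10 consecutive probes (a remainder of 5 or more formed its own bin). Loci were compared by exact two-sided sign-flip tests, and bins and genes with at least 2 probes by limma 3.58.1 (lmFit with an intercept, eBayes, Benjamini-Hochberg, R 4.3.3), which was tested on simulated data. Python 3.11.15, numpy 2.4.6, scipy 1.17.1, pandas 2.3.3 and statsmodels 0.14.6 were used.

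In each locus the highest, lowest, first and last bins, every bin alike or opposite across tumours, single probes in the last 200 kb and the members of 2 gene lists were eligible to be named. The members and lists were chosen with earlier results of these data known. Segment order was taken from names and neighbours in a RefSeq gene table of GRCm38.p6, without coordinates. The mm9 positions of single V, D, J and C segments were not used here. Alternatives were normexp background correction (offset 50), removal of intensity or GC trends, other filters, baselines, end lengths and bin sizes, left-out tumours, and the slide as a random block. The normexp setting started from the mean signals, without the dye normalization of the extraction software. With 4 arrays, the number of tumours sets how precise each mean is.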

Additional observations from a re-analysis of the deposited data

Results flagged for a closer look

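Of 61 sets of 4 values checked (locus excesses, end differences, slopes, bins and differences from Igh), 3 held a tumour far from the other tumours by Dixon's criterion for 4 samples, and chance marks about 1 in 20 such sets. In Igk the seventeenth bin (70443041 to 70592138) had 0.14 in tumour 1, against -0.015, 0.011 and -0.0097 in tumours 2, 3 and 4. This is the last bin of the high stretch of tumour 1. In Trb the fourth bin (40921042 to 41018448) had -0.18 in tumour 2, against -0.051, -0.035 and -0.058 in tumours 1, 3 and 4, and the array of tumour 2 was the noisiest. The fifth bin of Trb (41025051 to 41100309) had -0.094 in tumour 4, against -0.020, -0.015 and -0.0072 in tumours 1, 2 and 3.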

How the results depend on the processing

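Of 255 values recomputed under an alternative, 213 stayed within the spread between tumours or within 1.5 times a count. No bin of the 5 windows passed limma under any alternative except normexp background correction, which gave 2, and this includes the slide as a random block (correlation within slides -0.29). The share of Igk bins at 0.1 or above in tumour 1 was 77.8% at the chosen setting and 55.6% to 77.8% under the probe-level settings and bin sizes tried. Over all autosomal bins of tumour 1 the share was 2.07% at the chosen setting and 0.804% to 8.79% under the others. With normexp it was 8.79%, against 55.6% of the Igk bins. With normexp the excess was 3.34e-05 for Igl and -0.033 for Trb, the end difference -0.17 for Igk and -0.036 for Trb, and the slope of Trb -0.070. With the intensity trend removed, Igl was at -0.076. With the named probes left out, 32 probes of Igk gave 0.0093, 3 of Igl 0.16, 33 of Tra and Trd -0.074, 16 of Trb -0.076 and 10 of Trg -0.043. The end difference was then -0.13 for Igk, 0.19 for Tra and Trd and -0.19 for Trb. The slope without the named probes was -0.0077 for Igk, 0.096 for Tra and Trd and -0.21 for Trb. The Trb end difference was -0.046 by the median of the probes. With the last 100 kb the end differences were -0.13 for Igk and -0.096 for Trb, and with the last 400 kb -0.029 and 0.0053. The cause of these shifts was not tested. The 2 bins higher in all tumours became 1 with the intensity trend removed, 5 and 4 with the probe and the local GC trend removed (both chosen after seeing the data), 10 with bins of 5 and 1 with bins of 20. The shares of all autosomal bins were then 0.924%, 1.26%, 1.44%, 4.16% and 0.553%, in that order. The windows held 88 bins of 5 and 22 bins of 20. The 1 lower bin became 6 with normexp, 3 with the intensity trend removed, 2 with the local GC trend removed, 6 with bins of 5 and 0 with bins of 20. For lower bins the shares of all autosomal bins were 13.8%, 1.60%, 3.68%, 6.85% and 1.33%, in that order. Bins opposite between tumours numbered 2 with bins of 5, against 0.462% of all bins. Leaving out a tumour in turn gave 1 to 6 higher and 0 to 3 lower bins. Of all bins, 0.346% to 3.85% were then higher and 0.987% to 9.21% lower. No paired analysis was possible because the tumours form a single group.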
